A study of Homo sapiens with 4 samples.

Results

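The HLA class II genes encode the paired chains that carry peptides from taken-up proteins to the cell surface and show them to CD4+ T cells, and CIITA is the coactivator that switches them on. The 10 genes described here are CIITA, CD74, HLA-DRA, HLA-DRB1, HLA-DPA1, HLA-DPB1, HLA-DQA1, HLA-DQB1, HLA-DMA and HLA-DMB, out of 20163 protein-coding genes annotated on hg19. They were chosen by name, and all 10 were found in the annotation. A peak counted as a promoter peak when it overlapped the window of 1 kb either side of any annotated transcript start of the gene. The canonical start is that of the transcript GENCODE marks as canonical. A peak counted as distal when it lay within 20 kb of the gene body and outside 1 kb of every start of a protein-coding gene.

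H3K27ac, the acetylation of lysine 27 on histone H3 that marks active promoters and enhancers, was profiled by ChIP-seq in established cancer lines, to ask whether predicted regulatory mutations lie in active chromatin. COLO-205 comes from colon cancer, DU-145 from prostate cancer, and OVCAR-3 and SKOV-3 from ovarian cancer. COLO-205 and OVCAR-3 were grown in RPMI medium, DU-145 in Eagle minimal essential medium and SKOV-3 in McCoy's medium, each with serum, and the labels name no cytokine or drug. Each line has 1 library and no replicate, so no test between lines was possible, and the values below describe these 4 libraries.

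The peak lists hold 75468 peaks in DU-145, 76093 in OVCAR-3, 85576 in COLO-205 and 14001 in SKOV-3. The number of ChIP tags, computed from the peak values, was 36000000 in DU-145, 34200000 in OVCAR-3, 29800000 in COLO-205 and 22400000 in SKOV-3. The median tag pileup at a peak summit was 27, 27, 24 and 30 tags in the same order, and no listed peak had fewer than 14, 12, 12 and 11 tags. Each peak comes with a fold enrichment over the local background and a −log10 q, the caller's significance after correction for multiple testing, by which peaks are called stronger or weaker below. A gene without a peak is a gene where no enrichment passed the caller's threshold at this depth, which does not show that the mark was absent.

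In B cells, dendritic cells and macrophages class II genes are active without induction, and in many other cells interferon-gamma turns them on through IRF1 and CIITA. CIITA does not bind DNA itself. It docks on a complex of RFX, CREB and NF-Y proteins that sits on a conserved upstream module of class II promoters, with the X box bound by RFX and the Y box, an inverted CCAAT, bound by NF-Y. The same module is known to drive CD74, which encodes the invariant chain that guards the peptide groove, and the HLA-DM genes, whose product exchanges that chain's remnant for peptide.

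The upstream module is shown because the HLA-DRB1 peak overlaps part of it and the peak of its copy HLA-DRB5 lies beside it. Windows of 300 bases, from 250 before to 50 after each canonical start, were searched for GCAAC, the core of the X1 box, and for CCAAT, the core of the Y box, on both strands. GCAAC followed by ATTGG, the reverse complement of CCAAT, at a distance of 10 to 40 bases was found on the gene's strand in 2 of the 10 members, of which HLA-DRB1 is shown, and in 122 of 19881 protein-coding promoters (0.614%). Among 5 other class II genes it was found in HLA-DRB5, HLA-DOA and HLA-DQA2. Capitals mark GCAAC and ATTGG in the GRCh37 sequence, given 5′ to 3′ on the gene's strand:
HLA-DRB1, chr6:32557657-32557713, minus strand: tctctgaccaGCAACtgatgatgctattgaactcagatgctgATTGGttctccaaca
HLA-DRB5, chr6:32498140-32498196, minus strand: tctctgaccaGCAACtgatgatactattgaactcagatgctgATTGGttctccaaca
GCAAC began 78 bases before the canonical start in HLA-DRB1, with 27 bases between the cores. The stretches of HLA-DRB1 and HLA-DRB5 had 56 of 57 bases in common.

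On either strand, CCAAT was present in 8 of the 10 members, against 36.0% of all promoters, and GCAAC in 4, against 33.8%. No CCAAT was in the windows of CIITA and HLA-DPA1. HLA-DQA1, HLA-DQB1, HLA-DPB1 and HLA-DMA had ATTGG on the gene's strand without an exact GCAAC at the set distance (HLA-DMA at 2 places, 79 and 49 bases before the start, of which the first is printed), and their stretches are shown to compare the letters before their ATTGG. Here ATTGG alone is in capitals:
HLA-DQA1, chr6:32605080-32605129, plus strand: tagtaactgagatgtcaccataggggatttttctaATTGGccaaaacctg
HLA-DQB1, chr6:32634508-32634557, minus strand: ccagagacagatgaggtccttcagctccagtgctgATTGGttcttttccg
HLA-DPB1, chr6:33043633-33043682, plus strand: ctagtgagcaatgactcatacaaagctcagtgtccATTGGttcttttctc
HLA-DMA, chr6:32920939-32920988, minus strand: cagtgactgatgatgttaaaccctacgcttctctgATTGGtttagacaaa
A match is a description of letters and not a bound site, and a missing match says only that these exact letters are not in the window.

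Few of the 10 genes carried a promoter peak in any line. COLO-205 had a promoter peak at 1 of 10 members (10%), against 51.1% of all protein-coding genes in the same list. DU-145 had promoter peaks at 4 (40%) against 59.8%, OVCAR-3 at 2 (20%) against 60.5%, and SKOV-3 at 1 (10%) against 31.6%. The members' share was below that of all genes in each of the 4 lists. Most members lie in the gene-rich major histocompatibility complex on chromosome 6, and among the 206 protein-coding genes lying wholly or partly between 28 and 34 Mb the share was 63.6% in DU-145, 56.3% in OVCAR-3, 29.1% in COLO-205 and 29.6% in SKOV-3. The members were below this regional share too in each list, and no test was made of these differences. When each list was reduced to its 14001 strongest peaks, as many as SKOV-3 has, HLA-DMA alone had a promoter peak in each line, against 37.8% of all protein-coding genes in DU-145, 37.9% in OVCAR-3, 21.8% in COLO-205 and 31.6% in SKOV-3. With a promoter window of 2 kb the counts were 5 in DU-145, 3 in OVCAR-3, 2 in COLO-205 and 1 in SKOV-3, CIITA being the gene added in the first 3, against 61.1%, 61.8%, 54.2% and 32.3% of all genes.

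The gene that carried a promoter peak in every line was HLA-DMA, and its peaks were not at its usual start. They overlapped the windows of 2 extended HLA-DMA transcripts that begin at chr6:32936221 and chr6:32936871, 15347 and 15997 bp upstream of the canonical start at chr6:32920874. These starts face the promoter of BRD2, a bromodomain gene on the opposite strand that binds acetylated histones. With the canonical starts alone, the members with a promoter peak numbered 3 in DU-145, 1 in OVCAR-3, 0 in COLO-205 and 0 in SKOV-3, against 56.7%, 57.3%, 45.2% and 29.4% of 19881 protein-coding genes by their own canonical starts.

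**Figure D1:**
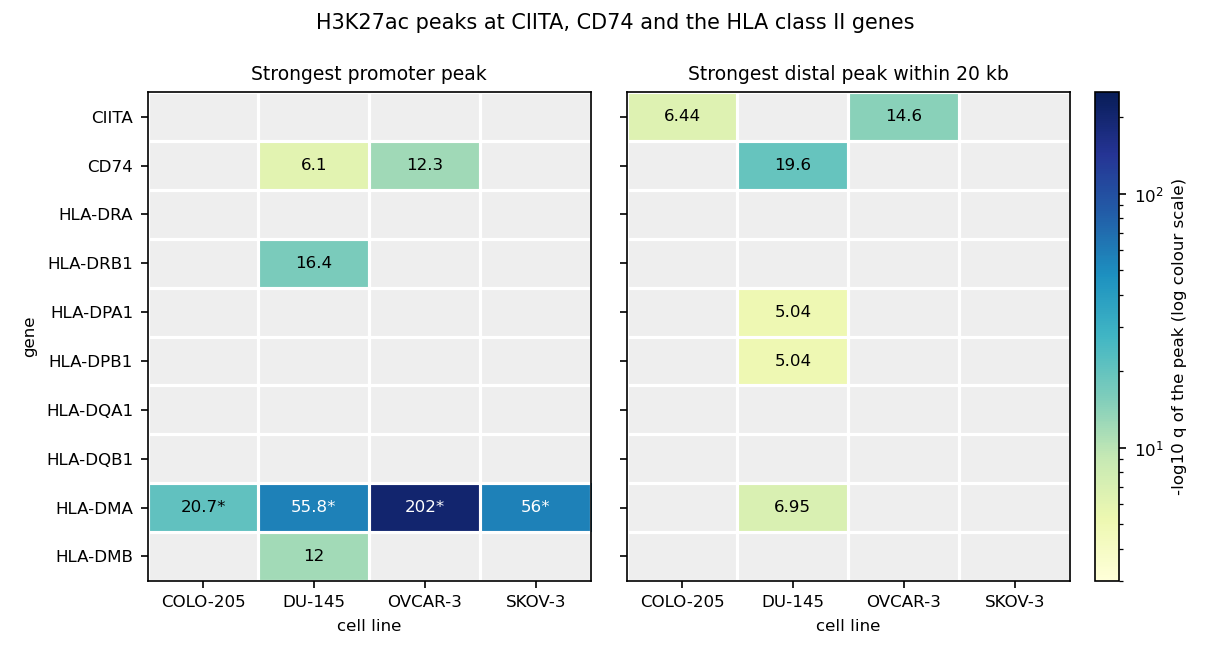
The −log10 q of the strongest promoter peak (left) and of the strongest distal peak within 20 kb (right) is given for each gene (rows) and line (columns), with grey for no peak and an asterisk where the canonical start had none. DU-145 has promoter values at 4 genes, and the HLA-DMA row, from 20.7 to 202, has asterisks throughout.

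CIITA, the coactivator, spans chr16:10960079-11036878 on the plus strand and had no promoter peak in any line. Its best-known promoters are promoter I of dendritic cells, promoter III of lymphocytes and promoter IV, which answers interferon-gamma. The 16 annotated starts of CIITA include groups at 10960079, at 10971059 and at 10972826, and none of the 16 windows held a peak. The nearest peak was in COLO-205, at chr16:10969715-10969935, 1124 bp before the canonical start at 10971059, so just outside the window. It lay in an intron of a longer CIITA transcript and had a fold enrichment of 4.24, a −log10 q of 6.44 and a summit pileup of 20 tags (95% Poisson interval 12.2 to 30.9, which covers counting error only, here and below). By −log10 q it ranked 65058 of the 85576 COLO-205 peaks, that is, among the weaker ones.

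The gene body of CIITA held other weak to moderate peaks. In COLO-205 a second peak, at chr16:11000844-11001094 in an exon, had a fold of 3.58, a −log10 q of 6.17 and 25 tags (16.2 to 36.9). In OVCAR-3 an intronic peak at chr16:10976800-10977026, with its summit 5860 bp downstream of the canonical start, had a fold of 5.89, a −log10 q of 14.6 and 32 tags (21.9 to 45.2), and was stronger than 62.4% of the peaks of that list. DU-145 and SKOV-3 had no distal peak at CIITA. The only other peaks within 20 kb of it, 3 in DU-145 and 2 in OVCAR-3, lay at the starts of its downstream neighbours DEXI and CLEC16A. The distances from the canonical CIITA start to the nearest peak were 1124 bp in COLO-205, 5741 bp in OVCAR-3, 64849 bp in DU-145 and 133161 bp in SKOV-3.

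CD74, the invariant chain gene at chr5:149781200-149792532 on the minus strand, was marked in DU-145 and OVCAR-3. The DU-145 peak at chr5:149792023-149792816 had a fold of 2.98, a −log10 q of 6.1 and 33 tags (22.7 to 46.3) over a local background of 10.4. The OVCAR-3 peak at chr5:149792073-149792536 had a fold of 4.38, a −log10 q of 12.3 and 38 tags (26.9 to 52.2) over a background of 7.89. Both summits lay in an exon, 248 and 204 bp downstream of the canonical start, and the peaks shared 464 bp with summits 44 bp apart. When all protein-coding genes were ranked by their strongest promoter peak, CD74 stood at percentile 42.0 in DU-145 and 47.4 in OVCAR-3, where genes with no peak fill the places below, so it was among the weaker promoters that were called. In COLO-205 and SKOV-3 the nearest peaks to its start were 36432 and 36456 bp away.

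DU-145 also had 3 distal peaks near CD74. The strongest distal peak of any member was among them, at chr5:149789442-149789919 in a CD74 intron, with its summit 2724 bp downstream of the canonical start. It had a fold of 6.36, a −log10 q of 19.6 and 42 tags (30.3 to 56.8), and was stronger than 85.3% of the DU-145 peaks, whereas the promoter peak was stronger than 15.7%. The other 2, at chr5:149765995-149766306 and chr5:149777404-149777774, had −log10 q of 5.65 and 6.22 and lay in introns of the neighbouring gene TCOF1. The protein-coding genes most like CD74 in their percentiles over the 4 lines were ANOS1 (Euclidean distance 0.281), UQCC5 (0.483) and MORN3 (0.901), and 2012 genes (9.98%) shared its pattern of a promoter peak in DU-145 and OVCAR-3 alone.

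The DR chains differed from each other in promoter peaks in DU-145 alone. HLA-DRA, the almost invariant alpha chain at chr6:32407655-32412823 on the plus strand, had neither a promoter nor a distal peak in any line. Its nearest peaks were 33426 bp away in DU-145 and 159452 bp in COLO-205, and in OVCAR-3 and SKOV-3 they were 184087 and 243464 bp away. HLA-DRB1, the polymorphic beta chain at chr6:32545679-32557625 on the minus strand, had a promoter peak in DU-145 at chr6:32557276-32557674, with its summit in an exon 140 bp inside the gene. The fold was 7.19, the highest of any promoter peak at a member's canonical start, the −log10 q was 16.4 and the pileup 30 tags (20.2 to 42.8) over a background of 3.31, the lowest background value of the list. HLA-DRB1 stood at percentile 61.1 of all genes in DU-145. A promoter peak in DU-145 alone was found at 877 genes (4.35%), HLA-DRB1 and HLA-DMB among them. This peak ended inside the stretch printed above, covering 18 of its 57 bases. ATTGG lay inside the peak and GCAAC outside it.

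DU-145 had 2 further peaks at DRB sequences. A peak across the canonical start of HLA-DRB5, with its summit in an exon, at chr6:32497814-32498093, had a fold of 4.09, a −log10 q of 8.91 and 30 tags, and a peak in the pseudogene HLA-DRB9, at chr6:32441090-32441410, had a fold of 5.37, a −log10 q of 9.83 and 23 tags. The other 3 lines had no peak at any of these. DRB genes are close copies, so the share of 31-base words found once in the primary assembly was computed. It was 71.0% in the HLA-DRB1 peak, 70.0% in the HLA-DRB5 peak and 84.5% in the HLA-DRB9 peak, against 100% in the promoter peaks of CD74, HLA-DMB and HLA-DMA. How reads with several matches were treated is not given in the sources used here, so tags from these copies cannot be fully told apart. Nor is it given whether the alignment reference also held alternative chromosome 6 haplotypes, whose words were not counted. The part of such haplotypes in the peak counts of the class II region was not tested. Which DRB genes each line carries was not analysed here.

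The DP and DQ chains had no promoter peak in any line. HLA-DPA1 (chr6:33032346-33048552) and HLA-DPB1 (chr6:33043767-33057473) encode the alpha and beta chains of DP, lie head to head and overlap. Their only nearby peak was in DU-145, at chr6:33064209-33064596 in the pseudogene HLA-DPA2, with a fold of 3.83, a −log10 q of 5.04 and 17 tags (9.9 to 27.2). It was stronger than only 6.07% of the DU-145 peaks. HLA-DQA1 (chr6:32595956-32614839) and HLA-DQB1 (chr6:32627244-32636160), the chains of DQ, had no peak of either kind. The nearest peak to HLA-DQA1 was 47509 bp away in DU-145 and 66689 bp in COLO-205, and 200427 and 201109 bp away in the ovarian lines OVCAR-3 and SKOV-3. For HLA-DQB1 the distances were 76760 bp in DU-145, 37438 bp in COLO-205, and 171176 and 171858 bp in the ovarian lines. CIITA, HLA-DRA and these 4 genes thus shared the pattern of no promoter peak in any line with 5034 protein-coding genes in all (25.0%).

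The DM genes, whose product loads peptides, gave a peak at the canonical start in HLA-DMB alone and in DU-145 alone. HLA-DMB (chr6:32902406-32908805, minus strand) had its peak at chr6:32908528-32908827, with the summit in its UTR, 156 bp inside the gene. The fold was 5.25, the −log10 q 12.0 and the pileup 30 tags (20.2 to 42.8), which placed HLA-DMB at percentile 53.1 in DU-145. The canonical start of HLA-DMA was 12047 bp from the nearest peak in DU-145, and 14960, 15029 and 15498 bp from it in OVCAR-3, SKOV-3 and COLO-205.

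The peaks given next are those that overlap a window of the extended HLA-DMA starts. A stronger COLO-205 peak at BRD2, at chr6:32937892-32938241 (fold 5.74, −log10 q 25.9), lay outside these windows. At the extended HLA-DMA transcripts and BRD2, the COLO-205 peak at chr6:32936372-32937621 had a fold of 4.21, a −log10 q of 20.7 and 72 tags (56.3 to 90.7). The stronger of 2 peaks in DU-145, at chr6:32936318-32939586, had a fold of 7.33, a −log10 q of 55.8 and 113 tags (93.1 to 136). In OVCAR-3 the peak at chr6:32935834-32939047 had a fold of 19.4, a −log10 q of 202 and 223 tags (195 to 254), and in SKOV-3 the stronger of 2, at chr6:32937788-32938585, had a fold of 10.9, a −log10 q of 56.0 and 85 tags (67.9 to 105). These put HLA-DMA at percentiles 88.2, 96.8, 98.5 and 99.6 in the order given. The summits of these peaks in DU-145, OVCAR-3 and SKOV-3 lay in a BRD2 intron, and that in COLO-205 in a BRD2 UTR and an intron of an extended HLA-DMA transcript, as did that of the weaker SKOV-3 peak (−log10 q 37.4). The weaker DU-145 peak, at chr6:32935815-32936230 (23.1), had its summit in an exon of an extended HLA-DMA transcript and outside BRD2. From peaks, the marks of HLA-DMA and BRD2 cannot be told apart on this shared stretch. A DU-145 peak counted as distal to HLA-DMA, at chr6:32942309-32942556 with a −log10 q of 6.95, lay in a BRD2 exon.

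**Figure D2:**
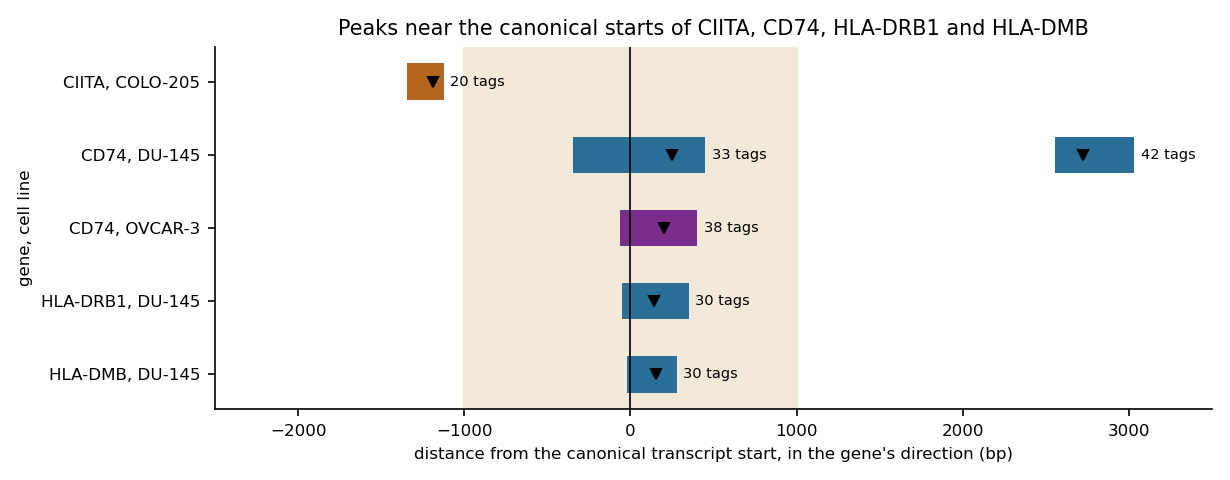
Bars show the extent of each peak relative to the canonical start (bp, in the gene's direction), triangles the summits, labels the tag pileup and shading the window of 1 kb either side. The CD74, HLA-DRB1 and HLA-DMB promoter peaks cross the start with summits 140 to 248 bp downstream of it. The distal CD74 peak of DU-145 (42 tags, summit 2724 bp downstream) and the CIITA peak of COLO-205 lie outside the shading.

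In total, distal peaks near the members numbered 5 in DU-145, 1 in OVCAR-3, 2 in COLO-205 and 0 in SKOV-3. At least 1 distal peak was found at 4 members in DU-145, 1 in OVCAR-3, 1 in COLO-205 and 0 in SKOV-3, against 51.8%, 46.1%, 60.9% and 13.9% of all protein-coding genes. These counts are small and follow the settings: with peaks of −log10 q of at least 10, DU-145 had 1 and COLO-205 had 0 distal peaks, and with a zone of 50 kb DU-145 had 14 and OVCAR-3 had 7. The median distance from a member's canonical start to the nearest peak was 18082 bp for DU-145, 105115 bp for OVCAR-3, 52063.5 bp for COLO-205 and 121376 bp for SKOV-3. The medians over all protein-coding genes were 109, 90, 2883 and 43253 bp.

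**Figure D3:**
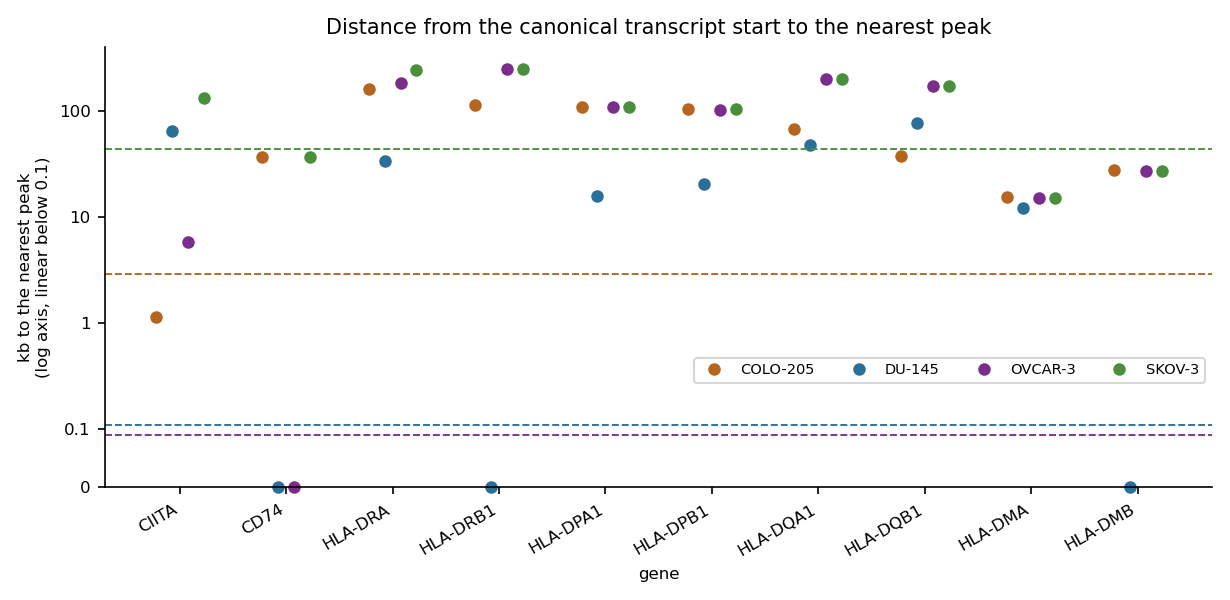
Each point is the distance in kb (vertical axis, logarithmic, linear near 0) from a gene's canonical start to the nearest peak of a line, and dashed lines are the medians of all protein-coding genes in the same colours. Points at 0 are the starts inside a peak, CD74 in DU-145 and OVCAR-3 and HLA-DRB1 and HLA-DMB in DU-145.

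The members on chromosome 6 lie in the class II region, here the 649.8 kb from the start of HLA-DRA to the end of HLA-DPB1 (chr6:32407655-33057473). It held 21 peaks in DU-145, 8 in OVCAR-3, 4 in COLO-205 and 5 in SKOV-3. Per megabase that is 32.3, 12.3, 6.16 and 7.69 peaks, against 28, 28.2, 31.7 and 5.19 over the genome, and 78.2, 41.5, 21 and 15 between 28 and 34 Mb around it. Peaks are crowded in parts of the genome, and the median window of 1 Mb with a protein-coding gene held 10, 12, 11.5 and 2 peaks. The class II region was thus below its surroundings in each line, below the genome average in COLO-205 and OVCAR-3, and below the median window in COLO-205 alone. Peaks covered 2.19%, 0.96%, 0.314% and 0.51% of it. The longest stretch without a peak that touches the region, followed to the next peak on either side, was 582 kb in OVCAR-3, 424 kb in COLO-205 and 642 kb in SKOV-3, and in these 3 lines it began before HLA-DRA and took in HLA-DRA, HLA-DRB1, HLA-DQA1 and HLA-DQB1. In DU-145 it was 248 kb and took in HLA-DQA1 and HLA-DQB1.

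**Figure D4:**
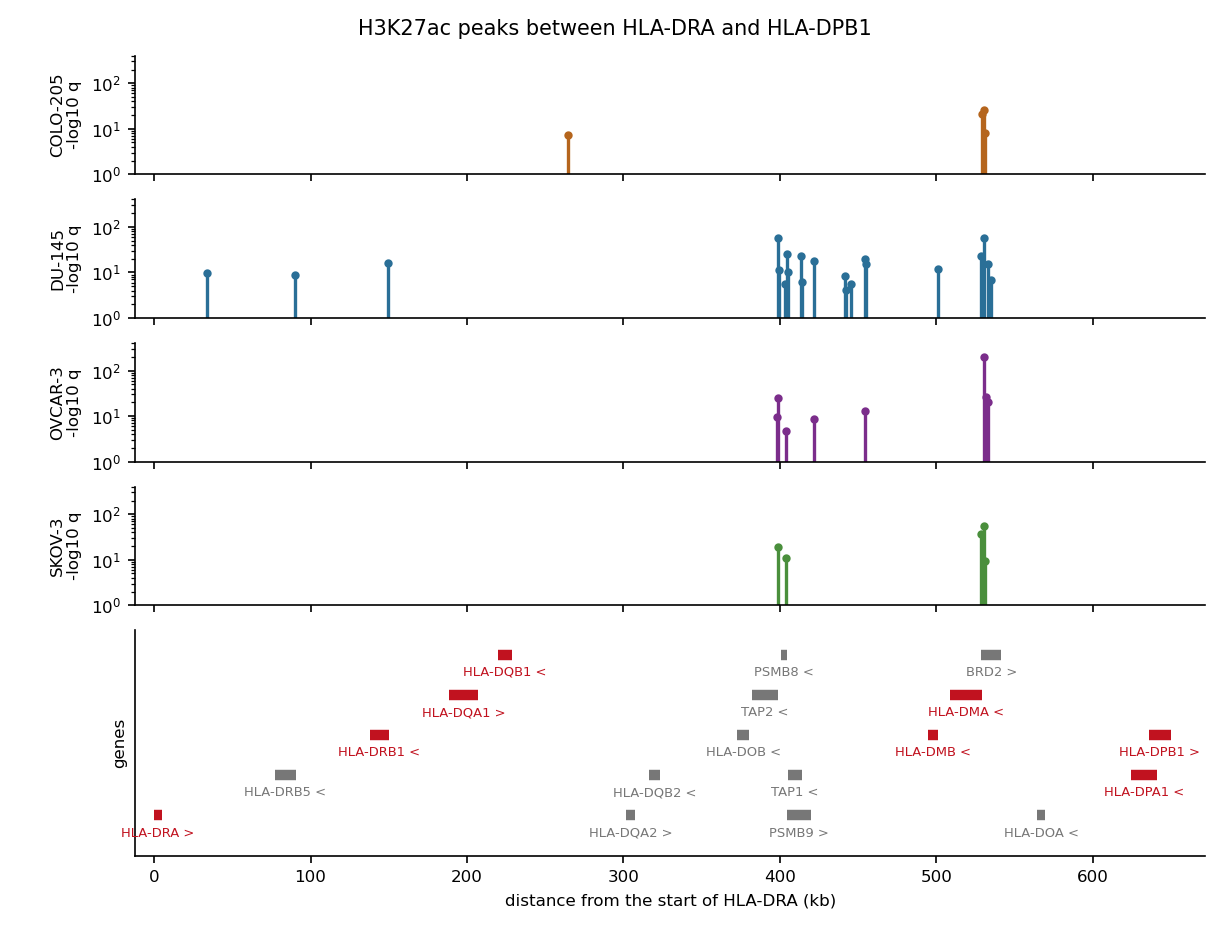
Each stem is a peak placed by the distance of its summit from the start of HLA-DRA (kb), with its −log10 q on a logarithmic axis for each line, above the protein-coding genes with members in red and arrows for strand. HLA-DMA is drawn with its extended transcripts up to BRD2, where all 4 lines have peaks, and only DU-145 has peaks in the DR part.

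Several peaks inside the region lay at genes of another pathway. Of 5 genes of class I peptide processing in or beside the region, which cut, carry and load peptides for HLA class I, promoter peaks were at 5 in DU-145, 4 in OVCAR-3, 1 in COLO-205 and 4 in SKOV-3. TAP2, a peptide transporter chain, had a −log10 q of 58.0 in DU-145, 24.6 in OVCAR-3, 18.8 in SKOV-3 and no peak in COLO-205. The proteasome genes PSMB8 and PSMB9 shared their strongest peak, with 25.1, 4.68 and 10.9 in the same 3 lines. It was away from the canonical start of PSMB9 in each of them, and in DU-145 alone weaker peaks (23.5 and 6.15) overlapped the window of that start. TAP1 had a peak in DU-145 alone (23.5). TAPBP, which lies beyond HLA-DPB1, had one in all 4 lines, from 4.34 in COLO-205 to 58.3 in OVCAR-3. Of 7 class I genes, with their regulator NLRC5 and the light chain B2M, promoter peaks were at 6 in DU-145, 4 in OVCAR-3, 4 in COLO-205 and 4 in SKOV-3, beside shares of all genes of 59.8%, 60.5%, 51.1% and 31.6%, so that the class I list was below the share of all genes in OVCAR-3. HLA-B, HLA-C, HLA-E and B2M were marked in all 4 lines, HLA-F and NLRC5 in DU-145 alone, and HLA-G in none.

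The other class II genes were mostly unmarked too. HLA-DOA and HLA-DOB, which encode an inhibitor of HLA-DM, and HLA-DQA2 and HLA-DQB2 had no promoter peak in any line, so that of 5 genes HLA-DRB5 alone had one, in DU-145 alone. Of 4 genes that process antigen for class II, LGMN had promoter peaks in COLO-205 (−log10 q 6.52, away from its canonical start), DU-145 (18.3) and OVCAR-3 (6.56). The cathepsin genes CTSS and CTSL had them in DU-145 (5.95 and 13.6) and OVCAR-3 (8.11 and 5.73). IFI30, a lysosomal thiol reductase, had none, and SKOV-3 had none at any of the 4. Promoter peaks were thus at 3 of these 4 genes in DU-145, 3 in OVCAR-3, 1 in COLO-205 and 0 in SKOV-3. The shares of all protein-coding genes, beside which both lists are read, were 59.8%, 60.5%, 51.1% and 31.6%.

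Most of the genes listed as acting upstream of class II promoters were marked in each line. Of 7 genes of the complex that CIITA docks on, promoter peaks were at 7 in DU-145, 6 in OVCAR-3, 6 in COLO-205 and 5 in SKOV-3. The NF-Y subunits NFYA and NFYB, CREB1 and RFXANK were marked in every line, with NFYA at −log10 q of 49.3 in DU-145, 103 in OVCAR-3, 164 in COLO-205 and 17.7 in SKOV-3. In COLO-205 NFYA lies where peaks are crowded, with 574 in chr6:41000001-42000000 against 8 in SKOV-3, 48 in DU-145 and 20 in OVCAR-3. RFX5, which binds the X box, had 70.5 in DU-145, 46.0 in OVCAR-3, 11.8 in SKOV-3 and no peak in COLO-205. RFXAP had peaks in COLO-205 and DU-145 alone (18.2 and 13.9), and NFYC in all lines but SKOV-3.

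Of 7 genes of interferon-gamma signalling, counted with USF1, a widely expressed factor of CIITA promoter IV, promoter peaks were at 7 in DU-145, 7 in OVCAR-3, 5 in COLO-205 and 6 in SKOV-3. IRF1, a factor that acts on promoter IV of CIITA, had −log10 q of 53.4 in DU-145, 99.3 in OVCAR-3, 25.7 in COLO-205 and 25.9 in SKOV-3. The receptor chains IFNGR1 and IFNGR2, the kinase JAK1 and USF1 were also marked in every line. JAK2 had a peak in DU-145 (13.1) and OVCAR-3 (180) alone, and SOCS1, a feedback inhibitor, in every line but COLO-205. The lists of upstream genes were thus above the share of all protein-coding genes in each line, while CIITA had no promoter peak in any within the window of 1 kb.

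**Figure D5:**
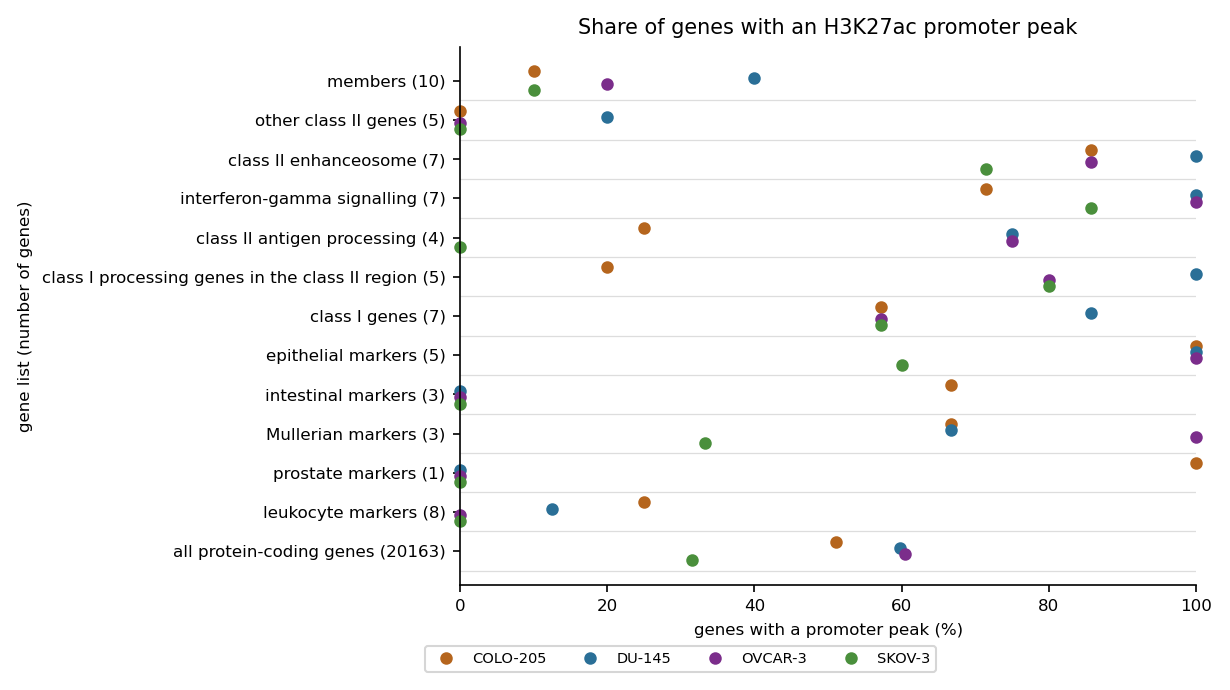
Each point is the share of genes of a list (rows, number of genes in brackets) with a promoter peak in a line (colours), in percent. The members lie at 10 to 40%, left of all protein-coding genes in the same colour, and the lists of the class II enhanceosome (the complex that CIITA docks on) and of interferon-gamma signalling lie right of them.

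Class II genes are also textbook markers of B cells, dendritic cells and macrophages, so leukocyte markers were read in every line. Of 8 such genes, promoter peaks were at 2 in COLO-205 (ITGAM, −log10 q 10.5, and CSF1R, 8.89), 1 in DU-145 (CD14, 6.93), and 0 in OVCAR-3 and SKOV-3, beside the shares of all genes of 51.1%, 59.8%, 60.5% and 31.6%. None of these 3 peaks was at a canonical start, and PTPRC, MS4A1, CD79A, CD3E and SPI1 had no promoter peak in any list. The part of other cells in the class II values was not tested.

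Markers of origin were read as a check of the labels. Of 5 epithelial markers, promoter peaks were at 5 in COLO-205, DU-145 and OVCAR-3 and at 3 in SKOV-3, where EPCAM and CDH1 had none and KRT8, KRT18 and KRT19 did, KRT8 away from its canonical start. The intestinal genes CDX2 and VIL1 had promoter peaks in COLO-205 alone (19.2 and 12.3), and CDH17 had none. The Mullerian gene PAX8 had 256 in OVCAR-3, 27.2 in SKOV-3, 22.3 in DU-145 and 10.6 in COLO-205, WT1 had peaks in OVCAR-3 and COLO-205, and MUC16 in OVCAR-3 and DU-145. The PAX8 peak of DU-145 and both MUC16 peaks were away from the canonical start. The prostate gene KLK3 had a promoter peak in COLO-205 alone (8.06), and 1 gene does not settle the label of DU-145.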

How the data were processed

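Per the submitters' processing notes, the tools were Bowtie2 2.1.0, for alignment to hg19 (GRCh37), and MACS2 2.1.0.20150603, which called narrow peaks per library (the methods give a q-value below 0.001). The deposited lists give for each peak a score, a fold enrichment (a ratio to local background), −log10 p and −log10 q values, and the offset of the summit, all as the authors' caller wrote them and not scaled between libraries. The methods describe merging peaks less than 350 bp apart; the lists were used as deposited.

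Transcript starts came from GENCODE 44 lifted to GRCh37, and sequence from the GRCh37 primary assembly. An overlap of 1 bp counted. Percentiles rank peaks or genes by −log10 q within a list. The summit pileup was solved from fold enrichment and −log10 p (tolerance 0.001), which worked for at least 99.92% of peaks in each list, and has an exact 95% Poisson interval. Solving and overlap counting were tested on simulated data. The smallest peak width, taken as the fragment length, the lowest background and 2700000000 genome positions gave the number of ChIP tags. The 31-base words were counted on both strands.

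All 10 members are named. A few genes of the planned lists and 1 promoter stretch are not reported here, and the counts leave them out. Every other gene of the lists is counted, and those named have a promoter peak in fewer than 4 lines, or are the up to 4 per list marked in every line with the highest summed percentile. The 3 genes nearest to CD74 are those with the smallest distance over percentiles; none are named for CIITA, which had no promoter peak. TCOF1, USF1 and the pseudogenes HLA-DPA2 and HLA-DRB9 were named after their values were seen. The members and lists were chosen with earlier results of these data known. Python 3.11.15, numpy 2.4.6, pandas 2.3.3, scipy 1.17.1 and matplotlib 3.10.9 were used. Stricter thresholds, equal list lengths, merging, other windows and zones, and other transcript sets were tried.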

Additional observations from a re-analysis of the deposited data

How the results depend on the processing

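Of the counts and promoter peak strengths recomputed under other settings, 111 values kept close to those reported, and 19 moved. Close meant counts within 1.5 times and strengths unchanged. A strength was compared only where the gene still had a peak, so lost peaks are not in this tally. A kept peak holds its −log10 q by construction, so the 111 is no measure of how stable the peaks are. Keeping the 14001 strongest peaks of every list left 1 member with a promoter peak in DU-145 and 1 in OVCAR-3, HLA-DMA in both, and 0 distal peaks in OVCAR-3, 0 in COLO-205 and 1 in DU-145, by construction, since 3 lists are shortened. A −log10 q of at least 10 left 0 distal peaks in COLO-205 and 1 in DU-145. A zone of 50 kb gave 14 distal peaks in DU-145 and 7 in OVCAR-3. A promoter window of 2 kb gave 2 members in COLO-205, where the CIITA peak then counts; in DU-145 and OVCAR-3 it adds CIITA through a short transcript that starts at chr16:11034576, near DEXI. Requiring the summit inside the window left 1 member in OVCAR-3, CD74. With the canonical transcript only, a setting chosen after seeing the data, 1 member had a promoter peak in OVCAR-3, 0 in COLO-205 and 0 in SKOV-3.

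The −log10 q at HLA-DMA moved to 25.9 in COLO-205 with merged peaks and with the 2 kb window. It moved to 23.1 in DU-145 and 37.4 in SKOV-3 with the summit inside, and to 37.4 in SKOV-3 with the 500 bp window. In each case another of the peaks around BRD2 and the extended HLA-DMA starts then counted. Strengths at CD74, HLA-DRB1 and HLA-DMB did not move where their peak was kept. They have no value with lists of equal length, nor has CD74 in DU-145 at a −log10 q of at least 10, nor HLA-DMA in OVCAR-3 with the summit inside.

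No paired analysis was possible because each line has 1 library and no test was made. SKOV-3, the shallowest library with the shortest list, limits what its empty promoters can show.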

Other observations

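Between TAP1 and HLA-DMB, DU-145 and OVCAR-3 shared peaks that lie at no protein-coding start. A stretch with no annotated gene held a DU-145 peak at chr6:32828874-32829635 (fold 7.07, −log10 q 17.9) and an OVCAR-3 peak at chr6:32829204-32829424 (fold 5.13, −log10 q 8.79). The starts of a pair of facing lncRNA genes held a DU-145 peak at chr6:32861234-32862436 (−log10 q 19.9) and an OVCAR-3 peak at chr6:32861982-32862380 (−log10 q 12.7). The 1 peak of COLO-205 away from BRD2 in the class II region, at chr6:32671872-32672085, also lay in no annotated gene (fold 5.31, −log10 q 7.47).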
